A study of Mus musculus with 2 samples.

Results

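*Cxcr6*+ liver T cells were the T cells chosen by a measured value, at least 1 unique molecular identifier (UMI, a tag that marks 1 captured RNA molecule) of the chemokine receptor gene *Cxcr6*. A cell was taken when it held at least 1 UMI of the T cell receptor complex genes *Cd3d*, *Cd3e* and *Cd3g* together, at least 1 of *Cxcr6*, none of the NK cell receptor gene *Ncr1*, none of the B cell gene *Cd79a*, and at most 3 of the Kupffer cell genes *Clec4f* and *Cd5l*. The rule found 528 such cells among 7919 that held at least 500 UMIs and 200 genes, 212 in the NASH library and 316 in the control library. Liver nonparenchymal cells were studied in male C57BL/6 mice, 8 weeks old at the start, with the liver cells of 3 mice pooled per diet. The NASH group was fed a methionine- and choline-deficient (MCD) diet for 6 weeks, and the control group a standard low-fat diet. Each diet had 1 library, so no test between diets was possible, cells of 1 pool were not counted as replicates, and every 95% interval here covers counting error only.

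CXCR6 is the receptor of CXCL16, a chemokine that sinusoidal endothelial cells and macrophages present on their surface or shed. In mouse liver, T cells with CXCR6, among them invariant NKT cells and tissue-resident memory cells, patrol the sinusoids and are held there with the help of this pair. The surface protein CD40 ligand, encoded by *Cd40lg*, and the high-affinity chain of the interleukin-2 receptor, encoded by *Il2ra*, are found on activated T cells.

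The NASH library held 3893 cells and 9326723 UMIs, and the control library 4336 cells and 11452972 UMIs, of which 3710 and 4209 cells were kept. *Cxcr6*+ T cells had a median of 1572 UMIs in NASH and 1750 in the control, with ranges of 552 to 7222 and 554 to 14730. Both libraries used 21 cell labels in common, and 4 *Cxcr6*+ T cells carried such a label, but none was the label of a *Cxcr6*+ T cell in both. Genes after *Rad54l2* in the alphabet, among them the T cell receptor chains, *Tcf7*, *Tbx21* and *Zbtb16*, were not analysed here. Levels are given as CPM, a gene's UMIs per 1000000 UMIs of a group's pooled cells. The cells were described by their markers. All 15 T cell markers, among them *Cxcr6*, *Cd3d*, *Cd3e* and *Cd3g* of the rule, had a UMI in both libraries. This cannot decide the label, since the markers of other liver cells given below had a UMI too. The 11 markers that the rule did not use summed to 4540 CPM in NASH and 4525 CPM in the control, against 3116 CPM and 4202 CPM in T cells without a *Cxcr6* UMI, and 199.6 CPM and 223 CPM in B cells. RNA of other liver cells was present in the *Cxcr6*+ T cells: all 9 markers of liver sinusoidal endothelial cells (LSECs) had a UMI in both libraries and summed to 2102 CPM in NASH and 1722 CPM in the control, and all 8 Kupffer cell markers summed to 495 CPM and 349 CPM. The B cell factor *Pax5* was at 0 in the *Cxcr6*+ T cells of both libraries. The part of this RNA in the results was not tested. Markers listed for NK cells and group 1 innate lymphoid cells summed to 2088 CPM in NASH and 2677 CPM in the control. Those listed for monocytes summed to 2262 CPM and 2959 CPM, and those for neutrophils to 674 CPM and 686 CPM. Most UMIs of the monocyte list were of *Ly6c2* and *Ccr2*, and most of the neutrophil list were of *Mmp9*. Which cells these UMIs came from was not tested.

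*Cxcr6*+ T cells made up 5.71% of the NASH cells (95% exact binomial interval, Clopper-Pearson, 4.99 to 6.51%) and 7.51% of the control cells (6.73 to 8.35%). Among T cells of the same rule, with or without *Cxcr6*, their share was 52.5% in NASH (212 of 404, 47.5 to 57.4%) and 51.7% in the control (316 of 611, 47.7 to 55.8%). The first pair of intervals did not overlap and the second overlapped nearly in full. Shares of cells depend on which cells each pooled liver released, and with 1 library per diet this cannot be told apart from the diet.

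The genes of the rule are given as a description. *Cxcr6* itself (chromosome 9, 123806475 to 123811760, plus strand, GRCm38, a protein-coding gene) had a median of 3 UMIs per cell in each library, with a maximum of 13 in NASH and 16 in the control. A single *Cxcr6* UMI was held by 51 of 212 NASH cells and 84 of 316 control cells, and 4 or more by 77 and 123. *Cd3e*, a signalling chain of the T cell receptor complex, had a UMI in 95.3% and 91.1% of the cells. At the edge of the *Cxcr6* limit, *Il2rb*, the beta chain of the interleukin-2 and interleukin-15 receptors, reached 2033 CPM in NASH and 2286 CPM in control cells with 1 *Cxcr6* UMI, and 820 CPM and 843 CPM in T cells with none. The limits on *Cd3*, *Ncr1*, *Cd79a* and the Kupffer cell genes left out fewer cells. Among cells with a *Cxcr6* UMI, 29 in NASH and 22 in the control had no *Cd3* UMI, 7 and 10 T cells were left out for *Ncr1*, 3 and 6 for *Cd79a*, and 1 and 1 for the Kupffer cell genes. Of the *Cxcr6*+ T cells, 8 in NASH and 14 in the control rested on a single *Cd3* UMI.

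The level of *Cxcr6* was high in T cells and innate lymphocytes and near background elsewhere. Double-negative T cells, with UMIs of neither *Cd4* nor the CD8 genes, had 1219 CPM in NASH and 1212 CPM in the control. CD4 T cells had 1070 CPM and 1035 CPM, NK cells and innate lymphoid cells 537 CPM and 387 CPM, and CD8 T cells 431 CPM and 399 CPM. The counting intervals of double-negative and CD4 T cells overlapped, and so did those of innate lymphocytes and CD8 T cells. B cells, Kupffer cells, LSECs, monocytes and neutrophils all lay at or below 6.45 CPM in both libraries. The ligand gene *Cxcl16* (chromosome 11, 70453983 to 70459984, minus strand) was found in other cells: LSECs held 387 CPM in NASH and 389 CPM in the control, Kupffer cells 288 CPM and 282 CPM, and monocytes 341 CPM and 173 CPM. *Cxcr6*+ T cells themselves had 10 and 14 *Cxcl16* UMIs.

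Over these 9 populations the genes whose level was most like that of *Cxcr6* were *Gata3*, *Gm2682*, *Acsbg1*, *Cd226*, *Il2ra*, *Il2rb*, *Eya2* and *Ifng*, with mean Pearson correlations of log2(CPM + 10) between 0.979 and 0.991. These are descriptions over populations that share a library and a depth, and any gene confined to T cells and innate lymphocytes tends to score high. *Gata3*, a transcription factor of T cell and innate lymphoid cell development, came first at 0.991. *Il2ra* and *Il2rb* were the receptor chains in this group, *Cd226* encodes an activating adhesion receptor, and *Ifng* encodes interferon gamma.

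Coreceptor genes, which the rule did not use, divided the *Cxcr6*+ T cells into a majority without either coreceptor and smaller CD4 and CD8 groups. Double-negative cells made up 59.4% in NASH (126 of 212, 52.5 to 66.1%) and 56.0% in the control (177 of 316, 50.3 to 61.6%). CD4 cells made up 20.3% (15.1 to 26.3%) and 25.9% (21.2 to 31.2%), and CD8 cells 20.3% (15.1 to 26.3%) and 17.4% (13.4 to 22.04%). The intervals of each class overlapped between the libraries. Since a missed UMI turns a CD4 cell into a double-negative one, each cell with at least 1000 UMIs was thinned to 1000: CD4 cells were then 14.9% of 188 NASH cells and 16.1% of 286 control cells, and double-negative cells 66.5% and 67.1%. T cells without a *Cxcr6* UMI held more CD8 cells, 41.1% of 192 in NASH and 39.3% of 295 in the control.

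A readout that stood far apart between the libraries was *Klrb1c*, which encodes NK1.1, the NK cell receptor that also marks most invariant NKT cells in C57BL/6 mice. A *Klrb1c* UMI was found in 33.5% of *Cxcr6*+ T cells in NASH (71 of 212, 27.2 to 40.3%) and in 60.8% in the control (192 of 316, 55.1 to 66.2%). At 1000 UMIs per cell the shares were 24.5% and 49.7%. Among T cells without a *Cxcr6* UMI the shares were 6.77% and 9.49%, and in B cells, which should lack the gene, 0 of 243, which allows a share of up to 1.23%, and 0.876% of 799, at medians of 1203 and 1219 UMIs. The summed level was 366 CPM in NASH and 857 CPM in the control.

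**Figure D1:**
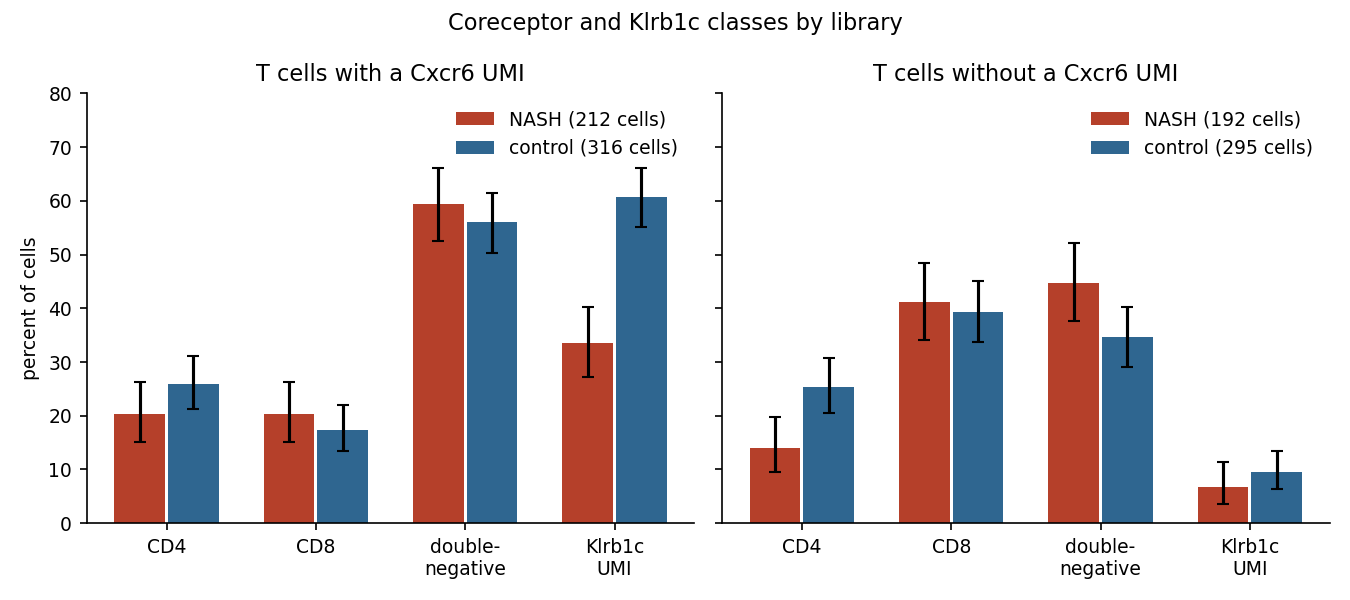
Percent of cells that were CD4, CD8 or double-negative, or that held a *Klrb1c* UMI, in T cells with (left) and without (right) a *Cxcr6* UMI, with bars for the NASH and the control library and whiskers for 95% Clopper-Pearson intervals for counting error. The *Klrb1c* bars with *Cxcr6* stand at 33.5% in NASH and 60.8% in the control, while the coreceptor intervals overlap.

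The *Klrb1c* difference was not spread evenly over the coreceptor groups. Among double-negative *Cxcr6*+ T cells a UMI was found in 40.5% in NASH (31.8 to 49.6%) and 71.8% in the control (64.5 to 78.2%), and among CD4 cells in 18.6% (8.39 to 33.4%) and 58.5% (47.1 to 69.3%). Among CD8 cells the shares were 27.9% (15.3 to 43.7%) and 29.1% (17.6 to 42.9%). Whether the CD8 cells differ from the other groups in this was not tested. The cells with *Klrb1c* had a median of 1735 UMIs in NASH and 1828 in the control, and those without it 1544 and 1612.

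*Cd40lg* and *Il2ra*, given with *Cd3e* and *Cxcr6* as marks of these cells, were each present in a minority. *Cd40lg* (chromosome X, 57212143 to 57224042) had 56 UMIs in NASH and 94 in the control, in 18.9% (13.8 to 24.8%) and 23.1% (18.6 to 28.2%) of the cells. *Il2ra* had 78 and 175 UMIs, in 23.6% (18.0 to 29.9%) and 29.7% (24.8 to 35.1%). Both genes together were seen in 17 NASH cells (8.02%) and 23 control cells (7.28%), and neither in 139 (65.6%) and 172 (54.4%). The intervals of each gene overlapped between the libraries. B cells had no UMI of either in NASH and 1 of *Cd40lg* and 7 of *Il2ra* in the control. As a description, since both were named as marks of these cells, they were more frequent than in T cells without a *Cxcr6* UMI, where *Cd40lg* was seen in 4.69% and 7.46% of cells and *Il2ra* in 5.21% and 7.12%. By coreceptor group, *Cd40lg* was seen in 30.2% and 36.6% of CD4 *Cxcr6*+ T cells and in 21.4% and 22.6% of double-negative ones, and CD8 cells held none of its UMIs in NASH and 3 in the control. *Foxp3*, named after its values were seen, the defining factor of regulatory T cells, which also carry *Il2ra*, had no UMI in NASH and 2 in the control.

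**Figure D2:**
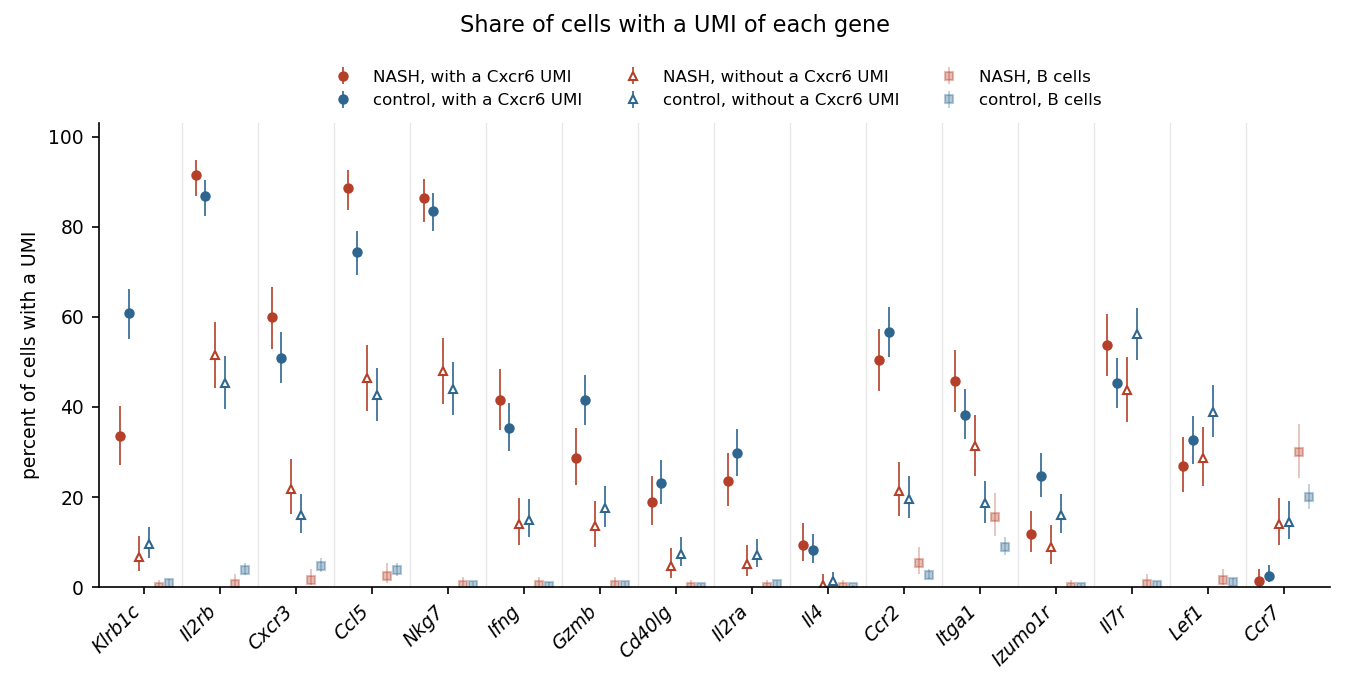
Percent of cells with a UMI of 16 genes in T cells with a *Cxcr6* UMI (filled circles), T cells without one (open triangles) and B cells (squares), in the NASH and the control library, with 95% Clopper-Pearson intervals for counting error. *Il2rb*, *Ccl5* and *Nkg7* were found in most *Cxcr6*+ T cells, *Cd40lg* and *Il2ra* in 18.9 to 29.7%, and *Ccr7* in few.

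*Cxcr6*+ T cells were next set against the T cells of the same library without a *Cxcr6* UMI (192 in NASH and 295 in the control). Among 3045 genes that reached 50 UMIs in the T cells of each library, 133 were at least 1.5-fold higher in *Cxcr6*+ T cells in both libraries, which is 4.37% of the genes, and 257 at least 1.5-fold lower in both, which is 8.44%. The median log2 ratio over all these genes was 0.06 in NASH and 0.04 in the control. T cells without a *Cxcr6* UMI carried more endothelial RNA, with LSEC markers at 6127 CPM in NASH and 6787 CPM in the control, and Kupffer cell markers at 1891 CPM and 675 CPM. They also rested on fewer T cell UMIs. At least 3 UMIs of the 15 T cell markers, which include *Cxcr6*, were held by all *Cxcr6*+ T cells. Among T cells without *Cxcr6*, 141 of 192 in NASH and 256 of 295 in the control held as many. The part of this in the ratios below was not tested.

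NK receptor genes were mostly higher. Of 7 with enough UMIs 6 were higher in both libraries and none lower, with a list median of 1.14 in NASH and 1.41 in the control on the log2 scale. *Klrb1c* was 2.76 higher in NASH and 3.02 higher in the control. *Cd160*, a receptor of HVEM on cytotoxic and resident lymphocytes, had 421 CPM in *Cxcr6*+ T cells against 130 CPM in T cells without *Cxcr6* in NASH, and 420 CPM against 99.4 CPM in the control. *Klrk1*, which encodes the activating receptor NKG2D, was 1.14 and 1.87 higher, and *Klrc1* and *Klrd1*, which form the inhibitory receptor CD94/NKG2A, were 1.51 and 1.10 higher in NASH and 1.41 and 1.03 in the control.

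Of 14 cytokine receptor genes 5 were higher and 2 lower in both libraries. *Il2rb* had 2603 CPM in *Cxcr6*+ T cells against 820 CPM in NASH, a log2 ratio of 1.67, and 2727 CPM against 843 CPM in the control, 1.69. *Il12rb2*, a chain of the interleukin-12 receptor, had ratios of 2.57 and 1.77, and *Il18r1*, a chain of the interleukin-18 receptor, of 1.17 and 0.74. *Il6ra*, which encodes the interleukin-6 receptor chain of resting T cells, stood at -2.78 and -2.22.

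Of 6 chemokine receptors 3 were higher and 3 lower in both libraries. *Cxcr3*, the receptor of CXCL9 and CXCL10 on effector cells, was found in 59.9% of *Cxcr6*+ T cells in NASH against 21.9% of T cells without *Cxcr6*, and in 51.0% against 15.9% in the control. *Ccr2*, a receptor of inflammatory chemokines, was higher too, with 0.77 in NASH and 1.18 in the control. *Ccr7*, which guides naive cells to lymph nodes, had 4 UMIs in NASH and 9 in the control in *Cxcr6*+ T cells, against 50 and 74 in T cells without *Cxcr6*. Of 16 genes of naive and recirculating T cells 9 were lower in both libraries and none was higher, with list medians of -0.82 in NASH and -1.65 in the control. *Klf2*, a factor that keeps T cells in circulation, stood at -1.26 and -1.92, and *Actn1*, an actin crosslinker, at -3.21 and -3.10.

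Of 10 cytotoxic genes 4 were higher in both libraries and 1 lower. *Nkg7*, a granule protein, had 2143 CPM against 892 CPM in NASH and 1821 CPM against 1106 CPM in the control. *Gzmb*, which encodes granzyme B, was 1.78 and 0.93 higher, whereas *Gzma*, which encodes granzyme A, was lower by 0.90 in NASH and 0.93 in the control. *Ifng* was 2.43 higher in NASH and 1.38 in the control. *Il4*, a cytokine that NKT cells make quickly, had 25 and 31 UMIs in *Cxcr6*+ T cells and 1 and 4 in the T cells without *Cxcr6*. *P2rx7*, the ATP receptor of resident T cells, stood at 1.90 and 1.36, *Hopx*, a cofactor of effector cells, at 1.36 and 1.19, and *Id2*, a regulator of effector and innate-like lymphocytes, at 1.21 and 1.55. Among 8 GIMAP GTPases, which support lymphocyte survival, *Gimap3*, *Gimap4* and *Gimap7* were higher in both libraries, with 1.34, 1.19 and 1.46 in NASH. The median of the GIMAP list was 1.14 in NASH and 0.50 in the control. That of 20 genes of T cell receptor signalling was 0.53 and 0.20, with none past 1.5-fold in both libraries.

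Genes with other roles stood at the ends of the range. Those with the highest lower bounds were, beside *Klrb1c* and *Il2rb*, *Asb2* (a ubiquitin ligase subunit, 2.46 in NASH and 2.49 in the control), *AC163354.1* (2.99 and 3.29), *Atp8a2* (a phospholipid flippase, 4.43 and 2.56), *Gdf11* (a ligand of the TGF-beta family, 2.55 and 2.26), *Fgl2* (a secreted fibrinogen-like protein, 1.74 and 1.79), *Ptpn7* (a lymphocyte tyrosine phosphatase, 1.97 and 1.68) and *Aqp9* (a glycerol channel, 2.11 and 2.83). *Mmp9*, a gelatinase best known from neutrophils, was 3.42 higher in NASH and 1.79 in the control. It was found in 44.8% of *Cxcr6*+ T cells in NASH and 45.6% in the control, while the neutrophil receptor *Cxcr2* had no UMI in the NASH cells and 13 in the control cells.

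The lowest ratios were largely those of genes that LSECs hold at high levels. *Ptprb*, the endothelial tyrosine phosphatase VE-PTP, stood at -2.29 in NASH and -2.48 in the control and had 7814 CPM and 8863 CPM in LSECs. *Jam2*, a junctional adhesion molecule, stood at -2.96 and -2.95, and *Fabp4*, a fatty acid carrier of endothelial cells, at -2.20 and -3.00. *Igfbp4*, *App*, *Ccdc80* and *Cd81* also lay between -2.15 and -3.54 in both. *Il1b*, which encodes interleukin-1 beta of myeloid cells, stood at -4.05 and -3.18. When at least 2 *Cd3* UMIs were asked of every T cell, *Fabp4* stood at 0.66 in NASH and 0.76 in the control, *Jam2* at 0.88 in NASH and *Ptprb* at 0.15 in NASH, and 76 genes were lower in both libraries.

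**Figure D3:**
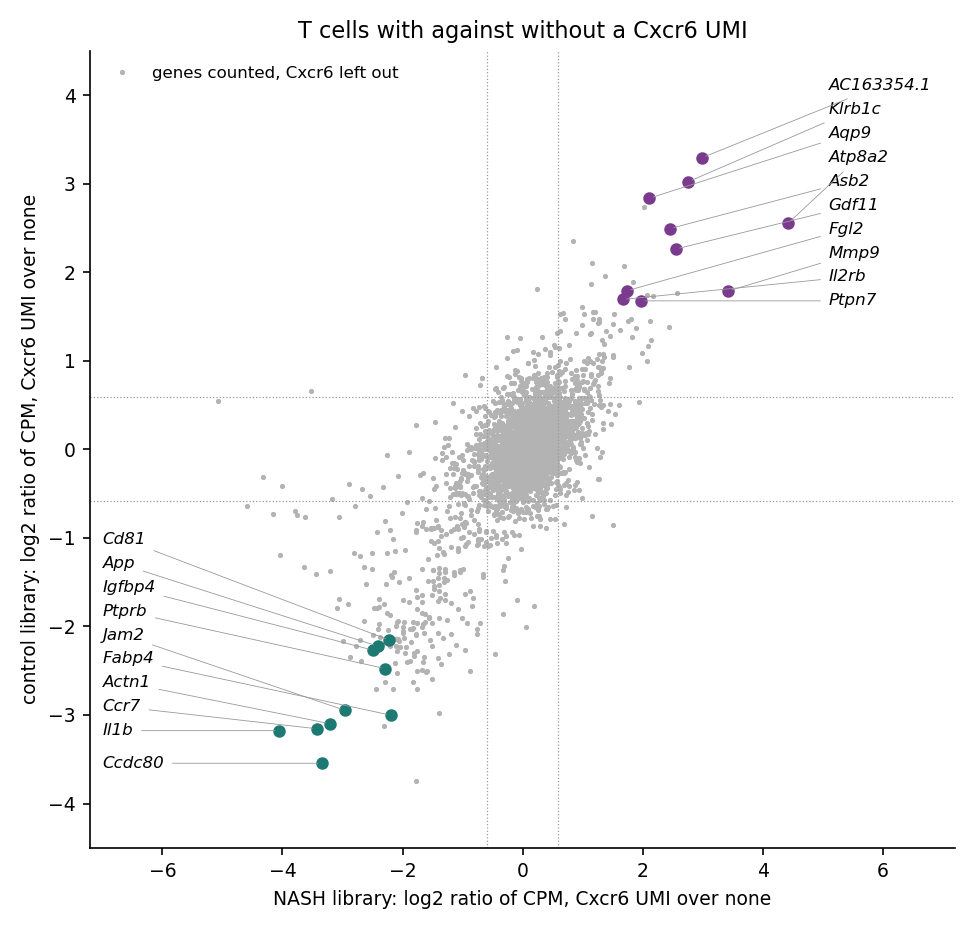
Log2 ratio of CPM in T cells with a *Cxcr6* UMI over T cells without one, in the NASH library (horizontal axis) and the control library (vertical axis), 0.5 UMI added to each sum. Grey points are the 3045 genes, *Cxcr6* left out, labels name 10 genes at each end, and dotted lines show 1.5-fold, past which 133 genes were higher and 257 lower in both.

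The level of each gene in *Cxcr6*+ T cells was then compared between the diets, on 363441 UMIs in NASH and 639849 in the control. Among 3634 genes that reached 50 UMIs in these cells when the libraries were added up, 207 (5.7%) were at least 1.5-fold higher in NASH and 227 (6.25%) at least 1.5-fold lower, together 434 or 11.9%. The median log2 ratio was -0.01 with quartiles at -0.23 and 0.22. These counts are by size alone, since 1 library per diet gives no spread between animals.

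Interferon-stimulated genes had the highest list median of those with more than a pair of genes, 0.66 against -0.01 over all genes. Of 17 counted 9 were at least 1.5-fold higher in NASH, none was lower, and 16 had a ratio above 0. *Iigp1*, an interferon-inducible GTPase against intracellular parasites, had 56 UMIs in NASH and 32 in the control, in 14.2% and 4.75% of the cells, a log2 ratio of 1.61 (0.97 to 2.30). *Igtp*, a related GTPase, was found in 42.0% and 26.6% of the cells with a ratio of 1.02 (0.68 to 1.36). *Ifi203*, *Gbp7*, *Ifi47* and *Irf1* had the most UMIs and ratios of 0.66, 0.53, 0.57 and 0.47. *Ifi27l2a* was the lowest of the list with -0.05. The list median lay between 0.55 and 0.72 in CD4, CD8 and double-negative *Cxcr6*+ T cells and in those with and without *Klrb1c*. In T cells without a *Cxcr6* UMI it was 0.08 against -0.04 over all genes, in LSECs 0.26 against 0.03, in Kupffer cells -0.08 against 0.01, and in B cells 0.31 against 0.31. Whether these medians differ was not tested.

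MHC class I genes, which present peptides to CD8 T cells, had a list median of 0.46 over 9 genes, of which none passed 1.5-fold. *B2m*, the shared light chain, had 13757 CPM in NASH and 9668 CPM in the control, a ratio of 0.51 (0.45 to 0.56), and *H2-K1* 7465 CPM and 5370 CPM, 0.48 (0.40 to 0.55). *H2-T23* was the lowest with -0.15. In T cells without *Cxcr6* the ratio of *B2m* was 0.41 and that of *H2-K1* 0.14.

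Secreted cytokines and chemokines had a list median of 0.50, with 3 of 8 genes at least 1.5-fold higher and none lower. The lowest was *Ccl4*, a chemokine of activated cells, with 33 UMIs in NASH and 71 in the control, a ratio of -0.28 (-0.93 to 0.33). *Ccl5*, a chemokine of memory and effector T cells, was the most abundant with 7922 CPM in NASH and 5658 CPM in the control, in 88.7% (83.6 to 92.6%) and 74.4% (69.2 to 79.1%) of the cells. By class, its ratio was 1.26 in CD4, 0.42 in CD8 and 0.38 in double-negative cells. *Ltb*, which encodes lymphotoxin beta, had a ratio of 0.64 (0.42 to 0.86). *Csf1*, the growth factor of macrophages, had 50 UMIs in 14.2% of NASH cells and 25 UMIs in 5.38% of control cells, a ratio of 1.8 (1.10 to 2.57). In cells with a *Klrb1c* UMI its ratio was 2.94 (1.98 to 4.08), and in cells without one 0.61 (-0.46 to 1.77). The list median was higher in some other cells, 1.5 in B cells, 0.88 in monocytes, 0.69 in LSECs and 0.65 in Kupffer cells. It was -0.11 in T cells without *Cxcr6* and -0.64 in NK cells and innate lymphoid cells. Whether these medians differ was not tested.

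*Ifng* showed how single cells can carry a ratio. It had 246 UMIs in NASH and 240 in the control, or 677 CPM and 375 CPM, a ratio of 0.85 (0.59 to 1.11). A single NASH cell held 77 of the 246 UMIs, and without the highest cell of each library the ratio was 0.39. Without cells that held 3 or more UMIs of other cell types' markers it was -0.09. The share of cells with a UMI was 41.5% (34.8 to 48.5%) in NASH and 35.4% (30.2 to 41.0%) in the control, with overlapping intervals. In cells with *Klrb1c* the ratio was -0.17 (-0.66 to 0.27), with a UMI in 43.7% and 43.2% of them. In cells without *Klrb1c*, which include the NASH cell with 77 UMIs, it was 1.70 (1.30 to 2.15) on 195 UMIs in NASH and 63 in the control, and 1.12 (0.66 to 1.61) without the highest cell of each library. A UMI was found in 40.4% and 23.4% of these cells. *Il4* had 15 UMIs in NASH and 2 in the control in cells without *Klrb1c*, or 64 CPM and 8.0 CPM. In cells with *Klrb1c* it had 10 and 29 UMIs, a level nearly the same in both libraries, 78 CPM and 74 CPM. A UMI of *Il4* was found in 14.1% and 12.5% of the cells with *Klrb1c*.

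NK receptor genes had more lower than higher members. Of 11 counted 4 were at least 1.5-fold lower in NASH and 1 higher, with a list median of -0.17. The classes did not all go this way. Among genes with at least 20 UMIs in a class, the list median was -0.66 in double-negative, -1.05 in CD4 and 0.43 in CD8 cells. It was -0.25 in cells with a *Klrb1c* UMI and 0.26 in cells without one. Whether these medians differ was not tested. *Klrb1c* had 133 UMIs in NASH and 548 in the control, a log2 ratio of -1.22 (-1.51 to -0.95). *Klrc1* had 108 and 294 UMIs, in 20.8% and 35.8% of the cells, a ratio of -0.62 (-0.96 to -0.31). *Klrc2*, an activating partner of CD94, stood at -0.77 (-1.38 to -0.22), and *Klrd1*, which encodes CD94, at -0.51 (-0.78 to -0.25). *Klra3*, an Ly49 receptor that has near copies among which reads can be shared, had 6 and 60 UMIs, a ratio of -2.40 (-4.01 to -1.30). *Cd160* was level, with 421 CPM in NASH and 420 CPM in the control. *Klra1*, an Ly49 receptor too, had 36 and 37 UMIs, a ratio of 0.78 (0.07 to 1.48), and 0.62 (-0.18 to 1.41) without the highest cell of each library. Its UMIs lay in different classes, 29 and 0 in CD8 cells, 7 and 25 in double-negative cells, and 0 and 9 in CD4 cells, and in double-negative cells its ratio was -1.21 (-2.73 to -0.03). *Klra9*, an Ly49 receptor gene outside the list and named after its values were seen, had 101 and 85 UMIs, a ratio of 1.06. Without the highest cell of each library the *Klra9* ratio was 0.94 (0.48 to 1.40). Within cells that held a *Klrb1c* UMI, *Klrc1* stood at -0.33 (-0.77 to 0.07) and *Klrd1* at -0.27 (-0.62 to 0.07), and within cells without one at -0.15 and -0.11. In T cells without *Cxcr6* the list median was -0.58 against -0.04 over all genes, with 3 of 7 genes lower and 1 higher.

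*Izumo1r*, which encodes the folate receptor 4 of regulatory and some other T cells, had 36 UMIs in NASH and 145 in the control, in 11.8% (7.78 to 16.9%) and 24.7% (20.03 to 29.8%) of the cells, a ratio of -1.18 (-1.76 to -0.66). In double-negative cells the ratio was -1.86 (-2.74 to -1.14) and in CD4 cells -0.02 (-0.98 to 0.82). In cells with a *Klrb1c* UMI it was -1.73 (-2.83 to -0.89) and in cells without one -0.13 (-0.96 to 0.69). The 4 regulatory T cell genes counted had a median of -0.53 with *Izumo1r* and *Capg*, an actin-capping protein, past 1.5-fold. In T cells without *Cxcr6* the median of this list was -1.01, with 5 of 9 genes lower and 1 higher. Genes of interleukin-17-type gamma delta T cells, named after their values were seen, were near absent in NASH. At least 1 UMI of *Il23r*, *Cd163l1*, *Blk*, *Il17re* or *Ccr6* was held by 1 NASH cell (0.472%, 0.0119 to 2.60%) and 22 control cells (6.96%, 4.41 to 10.3%). At least 2 were held by 0 of 212 NASH cells, which allows a share of up to 1.42%, and by 16 control cells (5.06%). Of the 22 control cells 2 had a *Klrb1c* UMI. *Itgae*, the CD103 integrin chain of epithelial resident T cells, also named after its values were seen, had 2 UMIs in NASH and 40 in the control.

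Cytotoxic genes were mixed, with a list median of 0.16 over 11 genes, 1 higher and 1 lower. *Gzma* had 58 UMIs in NASH and 374 in the control, a ratio of -1.86 (-2.30 to -1.47), but the share of cells with it differed little, 5.66% and 7.91%. Most of it lay in CD8 cells, where 25.6% and 34.5% had a UMI. *Gzmb* had 1147 CPM in NASH and 1303 CPM in the control, with a UMI in 28.8% (22.8 to 35.4%) and 41.5% (36.0 to 47.1%) of the cells. *Nkg7* stood at 0.24 (0.10 to 0.37), *Ctsw*, a cathepsin of cytotoxic cells, at 0.34 (0.06 to 0.61), and *Cst7*, which encodes the cathepsin inhibitor cystatin F, was the highest with 0.77 (0.22 to 1.31). *Eomes*, a transcription factor of cytotoxic and memory cells, had 46 UMIs in 8.49% of NASH cells and 20 UMIs in 3.48% of control cells, a ratio of 2.00 (1.23 to 2.85). It was seen in 32.6% (19.1 to 48.5%) and 18.2% (9.08 to 30.9%) of CD8 *Cxcr6*+ T cells. In T cells without *Cxcr6* the ratio of *Eomes* was -0.07 and that of *Gzma* -1.89.

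Receptors lay on both sides. Of 15 cytokine receptors 2 were at least 1.5-fold higher in NASH, *Il12rb2* at 0.69 (0.18 to 1.2) and *Il18r1* at 0.61 (0.28 to 0.93) but at -0.20 in cells without a *Klrb1c* UMI, and 1 lower, *Il6ra* at -0.67 (-1.69 to 0.21). *Il2rg*, the common chain of the receptors of interleukin-2, interleukin-7 and interleukin-15, stood at 0.41 (0.25 to 0.57), *Il7r* at 0.34 (0.15 to 0.53), and *Il2rb* at -0.07 (-0.18 to 0.05). *Cxcr4*, the receptor of CXCL12, was the only 1 of 5 chemokine receptors past 1.5-fold, with 136 UMIs in 32.1% of NASH cells and 87 UMIs in 17.4% of control cells, a ratio of 1.46 (1.06 to 1.87). It stood at 0.60 in T cells without *Cxcr6*, and B cells held 1620 CPM and 703 CPM. *Ccr2* had a ratio of -0.39 (-0.61 to -0.17) and *Cxcr3* of 0.30 (0.03 to 0.57). Checkpoint and activation genes had a list median of 0.40, with *P2rx7* at 0.59 (0.28 to 0.90) and the ectoenzyme gene *Cd38* at 0.76 (0.35 to 1.17) past 1.5-fold. *Cd69*, an early activation and residency receptor, stood at 0.47 (0.10 to 0.85) and *Icos*, a costimulatory receptor, at -0.08 (-0.41 to 0.24).

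Of 23 heat shock and immediate early genes, which cells induce within minutes of stress or handling, 5 were at least 1.5-fold higher in NASH and none lower, with a list median of 0.10. All 5 encode heat shock chaperones or their partners. *Dnajb1*, a cochaperone, had 297 UMIs in 57.5% of NASH cells and 185 UMIs in 29.4% of control cells, a ratio of 1.5 (1.23 to 1.77). *Hsph1*, a chaperone gene outside the list, had 132 UMIs in 38.7% and 64 UMIs in 13.6%, a ratio of 1.85 (1.42 to 2.31). *Hsp90aa1* and *Hspa1b* stood at 0.74 and 0.77, *Hspa1b* at -0.13 in cells without a *Klrb1c* UMI, and *Dnaja1* and *Hspa1a*, named after their values were seen, at 1.11 and 1.06. *Hspa1a* and *Hspa1b* are near-identical copies, between which reads can be split. *Jund* and *Junb*, the immediate early genes with the most UMIs, stood at 0.02 and 0.14, and *Dusp5*, a phosphatase, was the lowest with -0.46. The list median was higher in some other cells, 0.60 in LSECs, 0.52 in Kupffer cells and 0.55 in B cells, and 0.08 in T cells without *Cxcr6*.

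Cell cycle genes had a list median of -0.48, with 5 of 13 at least 1.5-fold lower in NASH and none higher. *Mki67*, a mark of dividing cells, had 59 UMIs in NASH and 175 in the control, a ratio of -0.74 (-1.20 to -0.32), while the share of cells with it was 6.60% and 6.65%, and without cells that held other cell types' markers its ratio was 0.03. *Hmgb2*, a chromatin protein, stood at -0.49 (-0.64 to -0.33) and *Pcna*, a replication clamp, at 0.08 (-0.21 to 0.37). At least 2 cell cycle UMIs were held by 64 NASH cells (30.2%, 24.1 to 36.9%) and 115 control cells (36.4%, 31.1 to 42.0%). Among the coreceptor groups *Mki67* had 51 UMIs in NASH and 44 in the control in double-negative cells, 7 and 79 in CD4 cells, and 1 and 49 in CD8 cells. A single control cell held 33 of the 44 UMIs, and another 45 of the 79. Among genes with at least 20 UMIs in a class, the list median was 0.56 in double-negative cells, with 6 of 13 higher and 1 lower. It was -0.66 in CD4 cells, with 7 of 10 lower and none higher, and -4.14 in CD8 cells, with 11 of 11 lower. At that minimum, 8.70% of all genes were higher and 11.3% lower in the *Cxcr6*+ T cells as a whole. The shares over all genes within each class are not given here, so the counts of the classes cannot be set against them. In T cells without *Cxcr6* the list median was -0.48.

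Genes of iNKT and gamma delta T cells had a list median of -0.23, with 3 of 9 at least 1.5-fold lower in NASH, *Klrb1c*, *Izumo1r* and *Gzma*, and none higher. *Il4* was the highest at 0.51. In double-negative cells 11 of these genes had at least 20 UMIs, 6 of them lower and none higher, with a median of -0.74. At a minimum of 20 UMIs, 11.3% of all genes were lower in the *Cxcr6*+ T cells as a whole. The share over all genes in double-negative cells is not given here. The 3 coreceptor genes had a median of -0.31, with none past 1.5-fold, *Cd4* lowest at -0.53 (-0.97 to -0.12) and *Cd8a* highest at -0.13 (-0.45 to 0.17).

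The other groups had medians closer to that of all genes. Of 15 genes of naive and recirculating T cells 1 was higher in NASH, *Bach2*, a transcriptional repressor, at 0.65 (-0.09 to 1.37), and 1 lower, *Il6ra*, with a list median of -0.03. None of the 8 GIMAP genes passed 1.5-fold, with a median of 0.22. Of 20 genes of T cell receptor signalling 1 was lower and none higher, with a list median of -0.08. *Lck*, the kinase that starts the signal, stood at 0.20 (0.02 to 0.37), *Ptprc*, which encodes CD45, at -0.02 (-0.13 to 0.08), and *Cd5*, an inhibitory receptor, was the lowest with -0.61 (-1.13 to -0.13). Residency and adhesion genes (10 counted) and glycolysis genes (10 counted) had none past 1.5-fold, with medians of 0.11 and 0.05. *Itga1*, the CD49a chain of liver-resident lymphocytes, was found in 45.8% and 38.3% of the cells, a ratio of 0.25 (-0.03 to 0.52). Among 21 transcription factors *Eomes* alone passed 1.5-fold, *Id2* stood at 0.06 (-0.03 to 0.15), *Maf* at 0.37 (0.20 to 0.55) and *Prdm1* was the lowest with -0.34.

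**Figure D4:**
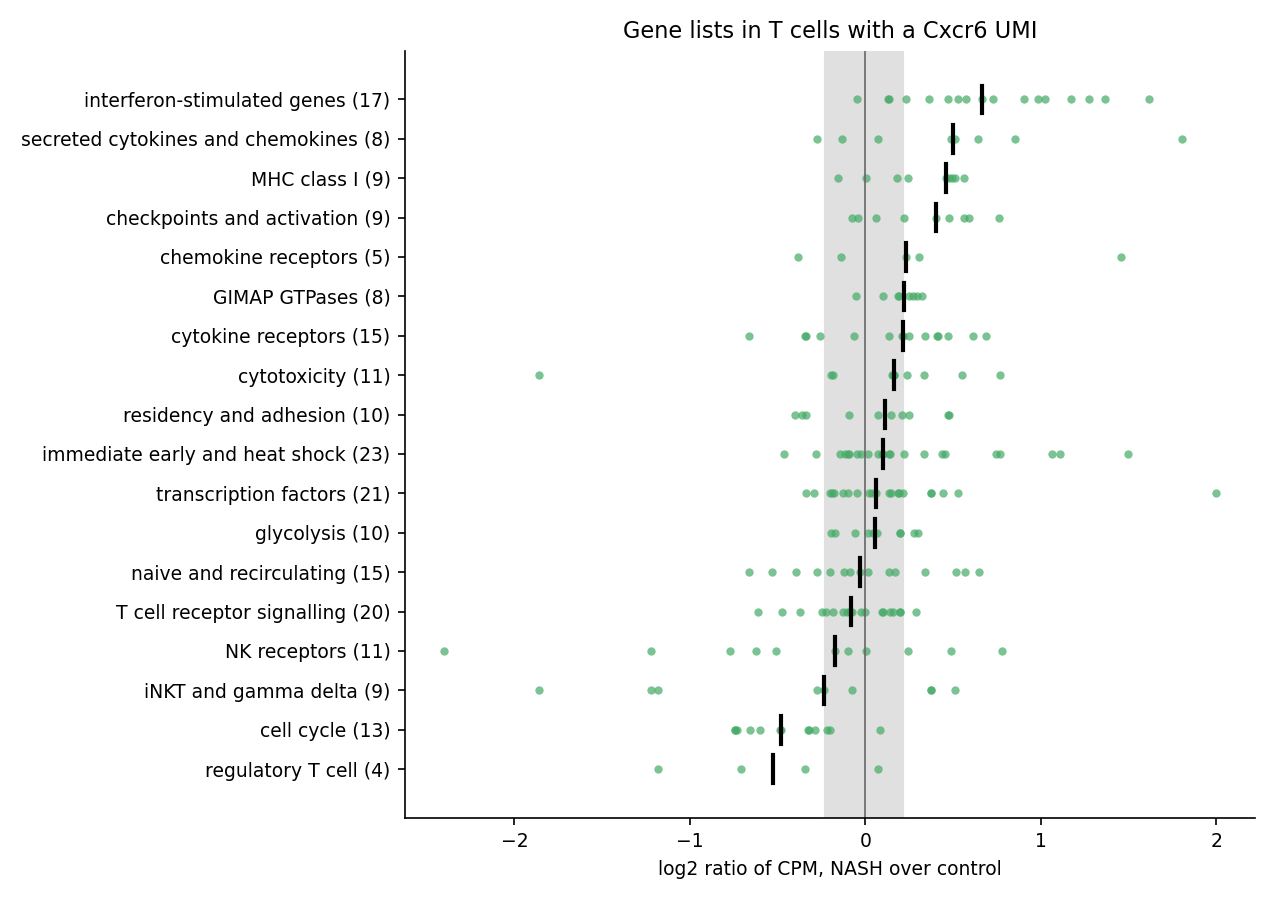
Log2 ratio of CPM in NASH over control in T cells with a *Cxcr6* UMI, for the genes of each list with at least 4 genes counted (number in brackets), where each point is a gene, the black bar is the list median, and the grey band spans the quartiles of all 3634 genes, -0.23 to 0.22. Interferon-stimulated genes lie highest at a median of 0.66, regulatory T cell and cell cycle genes lowest at -0.53 and -0.48.

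Among all genes, several of the largest ratios were of genes that other liver cells hold at higher levels. *Igkc*, the immunoglobulin kappa constant gene of B and plasma cells, was found in 22.6% of *Cxcr6*+ T cells in NASH and 87.0% in the control, 58 and 811 UMIs, a ratio of -2.98 (-3.40 to -2.60). It stood at -3.60 in T cells without *Cxcr6*, and plasma cell markers summed to 8.25 CPM and 61.0 CPM in the *Cxcr6*+ T cells. *Igha* had 5 and 212 UMIs. *Ighg2b* and *Ighg2c* had no UMI in NASH and 59 and 56 in the control, which is at least 11.2-fold and 10.6-fold lower in NASH against a floor of 3 UMIs in the NASH library. *Fabp4* (2.71, 1.99 to 3.55), *Cyp26b1*, a retinoic acid hydroxylase (1.68, 1.14 to 2.24), and *Col4a2*, a basement membrane collagen (1.88, 1.01 to 2.86), were higher in NASH. All 3 were far more abundant in LSECs, with *Fabp4* at 3194 CPM in NASH and 1625 CPM in the control, and in LSECs too their level was higher in NASH.

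The ratios of *Clu*, *Lyz2*, *H2-Ab1* and *Cxcl10* leaned on single cells. *Clu*, which encodes clusterin, had 12 UMIs in NASH and 123 in the control, of which 1 control cell held 102. Its ratio of -2.49 was -0.21 without the highest cells. *Lyz2*, lysozyme of myeloid cells, had 196 of 257 control UMIs in 1 cell, and its ratio of -1.42 turned to 0.59. *H2-Ab1*, an MHC class II chain, had 112 of 294 control UMIs in 1 cell, with ratios of -1.47 and -0.82. Without cells that held other cell types' markers the *H2-Ab1* ratio was 0.64. *Cxcl10*, a ligand of CXCR3, had 23 of 43 NASH UMIs in 1 cell, with ratios of 2.31 and 1.79, and its ratio was -0.14 without cells that held other cell types' markers.

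**Figure D5:**
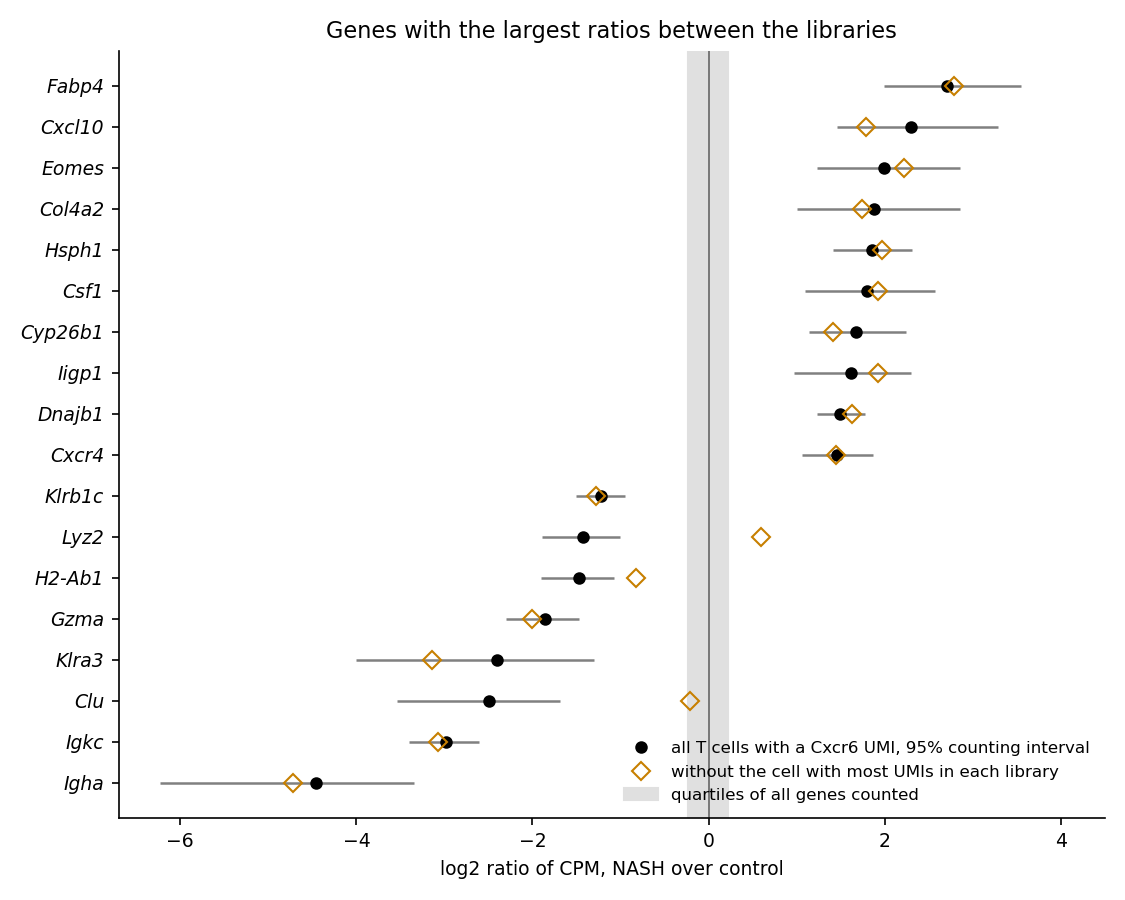
Log2 ratio of CPM in NASH over control in T cells with a *Cxcr6* UMI, for the genes with the highest lower bounds and the lowest upper bounds, without *Ighg2b* and *Ighg2c*, which had no UMI in NASH, where black points and grey lines give the ratio with its 95% counting interval, open diamonds the ratio without the cell with most UMIs in each library, and the grey band the quartiles of all genes. *Clu* and *Lyz2* lose their ratio without 1 cell, *Klrb1c* keeps -1.22 against -1.28.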

How the data were processed

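Liver nonparenchymal cells of NASH and control mice were captured on the BD Rhapsody system, 1 library per diet. The deposited tables hold UMI counts per gene and cell, which the authors made with the BD Rhapsody whole transcriptome pipeline on GRCm38 and did not normalize. They hold 16383 gene columns, of which 12 had been turned into dates and were not named. The NASH table has no gene names: its columns were named in the order of the control header, and mean levels of both libraries correlated at 0.978 in that order and at 0.370 and 0.369 when shifted by 1 column to either side. The study's limit on mitochondrial reads could not be applied here. Groups came from the sample labels.

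Counts were summed over the cells of each library and scaled to CPM. Log2 ratios had 0.5 UMI added to each sum, with exact 95% intervals on the counts, and shares had Clopper-Pearson intervals, except that a share of 0 was given the limit of 3 counts. A gene was counted as higher or lower past 1.5-fold, with at least 50 UMIs. Gene lists within the coreceptor and *Klrb1c* groups of *Cxcr6*+ T cells used genes with at least 20 UMIs. No test was made between libraries, since each diet had 1. Genes were named from those of the rule, in each list those with most UMIs and the highest and lowest ratio, 10 in each direction of each comparison, and 8 most like *Cxcr6*. Not all of these are reported here, and genes named from outside them are said to be so. The cells and the gene lists were chosen with earlier results of these data known. Scrublet (scanpy 1.11.5) called 3 of 3710 NASH cells and 52 of 4209 control cells doublets. Since it called so few in NASH, it had not worked there, and doublets were kept. Gene positions came from GENCODE M21. The log2 ratio and its interval were tested on simulated sums of independent counts. That simulation held no UMIs concentrated in single cells, so it does not cover them. Python 3.11.15, numpy 2.4.6, scipy 1.17.1, pandas 2.3.3 and matplotlib 3.10.9 were used.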

Additional observations from a re-analysis of the deposited data

Results flagged for a closer look

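Some genes stood past 1.5-fold in opposite directions between the diets in T cells with and without a *Cxcr6* UMI. These differences were not tested. Lower in NASH in *Cxcr6*+ T cells and higher in NASH in T cells without *Cxcr6* were mostly genes of antigen-presenting and myeloid cells. The MHC class II genes stood at -0.84 and 2.25 (*Cd74*), -1.10 and 2.51 (*H2-Aa*), -1.47 and 2.55 (*H2-Ab1*) and -1.01 and 2.42 (*H2-Eb1*), with the ratio in *Cxcr6*+ T cells given before that in T cells without it. In the same order, *Lyz2* stood at -1.42 and 1.59, *Mpeg1*, a pore-forming protein of macrophages, at -1.94 and 2.02, *Cybb*, a subunit of the phagocyte oxidase, at -1.71 and 1.14, *Gm2a*, a lysosomal activator protein, at -1.46 and 1.05, and *Lgals3*, which encodes galectin-3, at -0.99 and 1.24. *Nipsnap3b* stood at -0.75 and 0.68. Single control *Cxcr6*+ T cells held up to 97 *Cd74* UMIs, 77 of *H2-Aa*, 112 of *H2-Ab1*, 48 of *H2-Eb1* and 196 of *Lyz2*. Without the highest cell of each library, the ratios in *Cxcr6*+ T cells were -0.46 (*Cd74*), -0.62 (*H2-Aa*), -0.82 (*H2-Ab1*) and -0.49 (*H2-Eb1*). Those of *Cybb* and *Lyz2* were -0.66 (-2.08 to 0.50) and 0.59. Thus *Cd74*, *H2-Eb1* and *Lyz2* were no longer past 1.5-fold lower in NASH. Without cells that held 3 or more UMIs of other cell types' markers, *H2-Ab1* stood at 0.64, past 1.5-fold in the other direction. Monocyte markers in T cells without *Cxcr6* summed to 4161 CPM in NASH and 2533 CPM in the control. The part of these values in the differences was not tested.

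The opposite direction was seen for *Gbp2* (1.17 and -0.80) and *Gbp3* (0.90 and -1.01), guanylate-binding proteins induced by interferon gamma. Among T cells without *Cxcr6* 1 control cell held 139 *Gbp2* UMIs and 1 held 35 *Gbp3* UMIs, and without the highest cell of each library the ratios were 1.2 and 0.02 (*Gbp2*) and 0.87 and -0.29 (*Gbp3*). It was also seen for *Eif2b2* (0.92 and -0.97), *Ercc5* (1.12 and -1.15), *Fam46c* (0.88 and -0.66), *Inpp1* (0.79 and -0.80) and *Inpp4a* (0.77 and -0.98).

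Outside the comparisons, 29 NASH cells and 22 control cells held a *Cxcr6* UMI and none of the *Cd3* genes. Their *Il2rb* level was 178 CPM in NASH and 513 CPM in the control.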

How the results depend on the processing

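No paired analysis was possible because each diet had 1 library, and no replicate could be left out. Settings on other cell types' markers, gamma delta genes, cell cycle UMIs and *Klrb1c* were chosen after seeing the data. Of 1385 recomputed values for 67 genes under 13 settings, 1160 stayed within the counting interval. Another 202 lay outside it without changing sign past 1.5-fold, and 23 changed sign past 1.5-fold. The interferon list median stayed between 0.55 and 0.74 under every setting it was recomputed for. The causes of the shifts below were not tested, except where a setting counts fewer or more genes by its construction.

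With at least 2 *Cxcr6* UMIs, the cells were 4.34% of kept cells and 39.9% of T cells in NASH and 5.51% and 37.97% in the control, control CD8 cells were 13.4%, and *Lyz2* stood at 1.18. With no *Clec4f* or *Cd5l* UMI, the shares of kept cells were 4.58% and 6.23%, and 154 of 2292 genes (6.72%, against 8.44% in the report) were lower than in T cells without *Cxcr6* in both libraries. With at least 2 *Cd3* UMIs, the shares of T cells were 60.4% and 57.7%, 76 of 2494 genes (3.05%) were lower in both, and ratios against T cells without *Cxcr6* were 0.66 in NASH and 0.76 in the control for *Fabp4*, 0.97 in the control for *Il1b*, and 0.88 and 0.15 in NASH for *Jam2* and *Ptprb*. With the rule applied to cells thinned to 1000 UMIs, the shares of T cells were 47.2% and 45.7%, that of kept control cells 6.44%, and of 1360 genes 67 (4.93%) were higher and 75 (5.51%) lower in both. Thinning the chosen cells gave CD4 shares of 14.9% and 16.1% and double-negative shares of 66.5% and 67.1%.

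Between the diets, 477 and 618 of 5486 genes were higher and lower in NASH with a minimum of 20 UMIs (8.70% and 11.3%), 1894 and 2736 of 10056 with no minimum (18.8% and 27.2%), 77 and 77 of 2143 with a minimum of 100 (3.59% each), and 41 and 48 of 3634 past 2-fold. Against T cells without *Cxcr6*, 226 and 560 of 5124 were higher and lower in both libraries at 20 UMIs (4.41% and 10.9%), 527 and 1630 of 9050 with no minimum (5.82% and 18.0%), 52 and 166 of 3045 past 2-fold, and 115 of 1612 were lower at 100 UMIs (7.13%).

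Without cells that held 3 or more UMIs of other cell types' markers, the shares of kept cells were 2.86% and 5.08% and that of NASH T cells 59.6%, 136 of 2214 genes (6.14%) were higher in NASH, and of 1087 genes 60 (5.52%) were higher and 40 (3.68%) lower than in T cells without *Cxcr6* in both libraries. Ratios between the diets were -0.14 for *Cxcl10*, 0.64 for *H2-Ab1*, 1.14 for *Lyz2*, -0.092 for *Ifng* and 0.032 for *Mki67*, and those against T cells without *Cxcr6* were 1.45 in NASH and 0.12 in the control for *Fabp4* and, in NASH, 1.21 for *Jam2* and 0.38 for *Cd81*. Without cells of 2 or more cell cycle UMIs, *Clu* stood at 1.32 and *Lyz2* at 0.94. In cells with a *Klrb1c* UMI *Ifng* stood at -0.17, and in cells without one *Clu* stood at 0.29, *Lyz2* at 0.37, *Il18r1* at -0.20, *Ifit1* at -0.16 and *Hspa1b* at -0.13.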
